A study of Drosophila melanogaster with 2 samples.

Results

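The regions described here are 421 summits of Nemo ChIP-seq peaks that lay just inside protein-coding genes. They were taken from the 9299 peaks of the authors' IDR list (irreproducible discovery rate, which scores whether peaks repeat in rank in both replicates). A summit was kept when it lay 0 to 500 bp downstream of its nearest transcription start site (TSS), when that TSS belonged to a protein-coding gene, and when no other gene had a TSS within 500 bp of the summit. The 421 downstream summits were 4.53% of the list (95% Wilson interval 4.12 to 4.97) and belonged to 404 genes. They were set against the 2168 summits of the list that met the same conditions but lay 1 to 500 bp upstream, called upstream summits here.

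The chromatin came from whole Drosophila melanogaster embryos, 0 to 24 h old and of both sexes, of the nmo-GFP strain, a transgenic line in which green fluorescent protein is fused to the C-terminus of the nmo product. Fragments of 200 to 800 bp made by sonication were precipitated with an anti-GFP antibody. The series holds 1 group of 2 samples, biological replicates 2 and 3, and no mock or input sample was analysed here. Whole embryos mix all cell types of the stages collected, so the peaks cannot be placed in a tissue. Read depth was unknown, and intervals on shares cover the counting of summits only.

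Nemo is a proline-directed serine/threonine kinase with no DNA-binding domain, known for phosphorylating factors of the Wnt, BMP and clock pathways and for its part in planar cell polarity. A fly promoter places its sequence elements, such as the DNA replication-related element (DRE) and Motif 1, close to the TSS, while elements such as the downstream promoter element (DPE) and the GC-rich pause button lie in the first transcribed bases, where RNA polymerase II often pauses. The first bases of most genes are 5' UTR, followed by coding sequence or by the first intron, which in flies often carries regulatory sites and alternative promoters.

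Sequences are given here to show what lay under the downstream summits. They were read from RefSeq's Release 6 genome, which shares dm6 coordinates, on the strand of the gene. The first 3 are stretches of 30 bases with the motif in capitals, each from a strong downstream summit that holds it. RpL26, a ribosomal protein gene, has the DRE at the TSS (chr3L:18898850-18898879, plus strand). Mer, the gene of the Hippo pathway protein Merlin, has Motif 1 there (chrX:19693493-19693522, minus strand). Prx4, a peroxiredoxin gene, has the pause button letters with their middle 84.5 bp past the TSS (chr3L:3042791-3042820, plus strand). The Prx4 summit lay at 130 bp, in an intron, and whether the letters act as a pause button there was not tested. The other 3 are stretches around the strongest summits in introns, with the summit base in capitals, from CG31612 (chr2L:21794851-21795051, minus strand), CG43116 (chr3R:25996532-25996698, minus strand) and Ptp4E (chrX:4939885-4940085, plus strand).
RpL26 DRE: gatgacagtgtTATCGATActagctgaatt
Mer Motif 1: atctaacggctGGTCACACTgtctatgttt
Prx4 pause button: gactggctgacaCGGACGgaacaaggattt
CG31612 intron: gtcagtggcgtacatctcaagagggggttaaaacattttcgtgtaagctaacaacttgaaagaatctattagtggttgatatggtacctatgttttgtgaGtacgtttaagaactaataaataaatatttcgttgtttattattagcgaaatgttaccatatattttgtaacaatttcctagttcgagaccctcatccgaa
CG43116 intron: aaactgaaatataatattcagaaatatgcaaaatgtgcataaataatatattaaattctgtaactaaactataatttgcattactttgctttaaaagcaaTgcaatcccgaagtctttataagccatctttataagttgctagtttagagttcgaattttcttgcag
Ptp4E intron: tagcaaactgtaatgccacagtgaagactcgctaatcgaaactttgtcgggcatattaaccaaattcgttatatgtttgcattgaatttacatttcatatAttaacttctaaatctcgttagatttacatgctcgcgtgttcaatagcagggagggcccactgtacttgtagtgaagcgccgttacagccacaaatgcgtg

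Most downstream summits sat close to the start. Their median distance from the TSS was 66 bp (quartiles 21 and 201 bp), and 119 of 421 (28.3%) lay within the first 25 bp, 4 of them on the TSS itself. The count dropped from 250 summits in the first 100 bp to 64 in the next 100 bp and to 27 at 200 to 299 bp, and then came to 32 at 300 to 399 bp and 48 at 400 to 500 bp. Position is what the rule used, so these values describe the set and are not a test.

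Summits inside genes were weaker than summits before them, and fewer of them reached the IDR list. That list held exactly the 9299 strongest of the 30000 pooled peaks, so the share of pooled summits in it is a measure of strength. In the pooled list 2121 summits met the downstream rule, and 421 of them (19.8%, 95% Wilson interval 18.2 to 21.6) were in the IDR list, against 2168 of 4208 upstream summits (51.5%, interval 50.01 to 53.03). The difference was -31.7 percentage points (95% Newcombe interval -33.9 to -29.4). Over all pooled peaks the share was 31.0%. The share was 33.5% at 0 to 50 bp, and 54.9% in the 50 bp before the TSS. It came to 17.8% at 50 to 100 bp, was lowest at 200 to 250 bp (7.65%, interval 4.61 to 12.4) and stood at 25.3% (interval 17.5 to 35.1) at 400 to 450 bp. Summits in coding sequence were kept least often, 9 of 272 (3.31%, interval 1.75 to 6.17), while those in the 5' UTR (22.7%) and in introns (21.5%) were kept at shares whose intervals overlap.

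**Figure D1:**
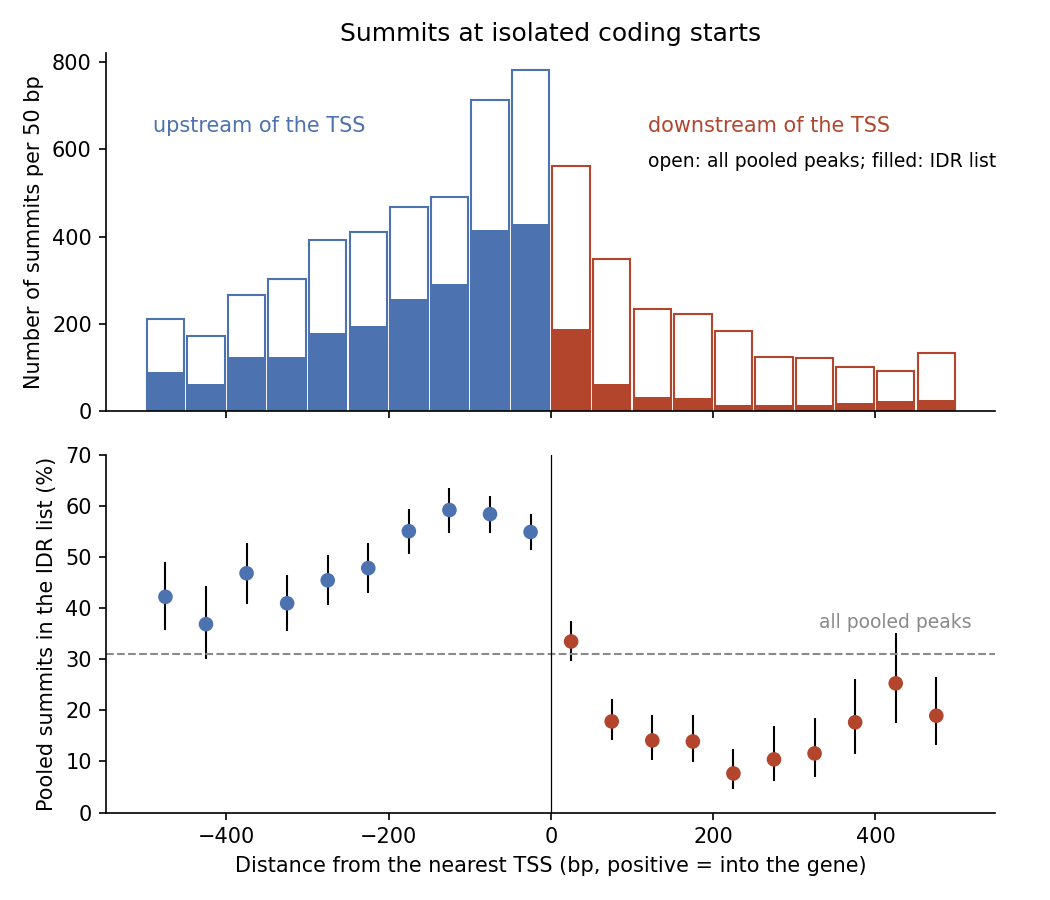
Number of summits per 50 bp at isolated coding starts (top; open bars, all pooled peaks; filled bars, IDR list) and the share of pooled summits that were in the IDR list (bottom; points with 95% Wilson intervals) against distance from the nearest TSS. The share was 54.9% in the last 50 bp upstream and 17.8% at 50 to 100 bp downstream; the dashed line is the 31.0% of all pooled peaks.

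Within the IDR list the same order of strength was seen. Their signal values, the authors' own measure per peak, ran from 166 to 4986 with a median of 259 (quartiles 199 and 387), against a median of 352 (243 and 552) for upstream summits. In 36.3% of all pairs of a downstream and an upstream summit the downstream one was the stronger. The ratio of the medians was 0.735, and it was 0.761 among the 9299 strongest peaks of replicate 2 and 0.748 among those of replicate 3. Only 29 downstream summits were among the 1000 strongest peaks, and 261 ranked past 5000.

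From 300 bp on most summits lay in introns and none in coding sequence. Of all 421, 306 (72.7%, interval 68.2 to 76.7) were in the 5' UTR, 105 (24.9%, interval 21.1 to 29.3) in an intron, 9 (2.14%) in coding sequence and 1 in a 3' UTR, with any exon of the gene's own transcripts taking precedence over an intron. In the first 100 bp, 242 of 250 (96.8%) were in the 5' UTR, where 81.75% of all positions at isolated coding starts are 5' UTR. At 200 to 299 bp 15 of 27 (55.6%, interval 37.3 to 72.4) were intronic, 9 were in the 5' UTR and 3 in coding sequence, against 26.5%, 26.7% and 46.3% of positions. At 300 to 399 bp 27 of 32 (84.4%, interval 68.3 to 93.1) were intronic, against 30.8% of positions at that distance. At 400 to 500 bp 43 of 48 (89.6%, interval 77.8 to 95.5) were intronic, against 34.5% of positions. Of the 80 summits from 300 bp on none was in coding sequence, which took 49.4% and 49.3% of positions in the 2 distance classes.

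Base composition moved with this. The 201 bp around downstream summits at 400 to 500 bp had a median GC content of 34.1%, against 39.8% at intronic and 52.7% at coding positions of the same distance. Among the positions at that distance whose GC content lay between the quartiles of the summits (27.7% and 43.4%), 56.4% were intronic and 18.8% coding. The intronic share of the summits there, 89.6%, was above both this and the 34.5% of all positions. These positions came from all isolated coding starts and were not matched to the summits by gene, or by GC content within that range. The part of GC content in the intronic share was not tested.

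**Figure D2:**
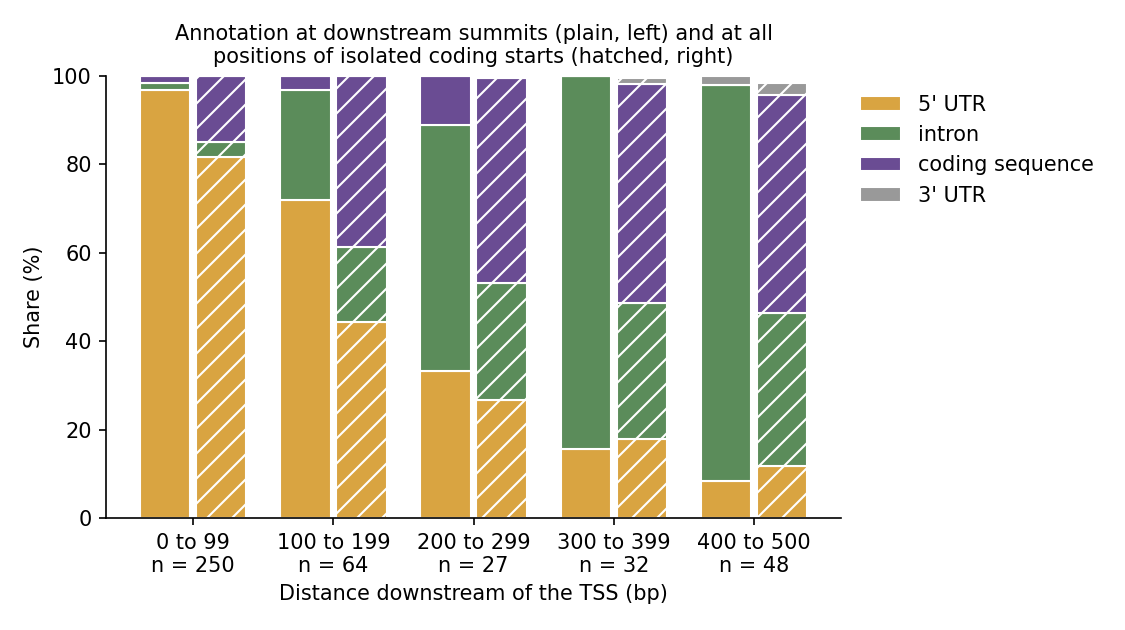
Share of downstream summits (plain bars, left of each pair) and of all positions at isolated coding starts (hatched bars, right) in each annotation, by distance downstream of the TSS; n is the number of summits, and the rest of a hatched bar is other exon or beyond the gene. Intronic summits made up 1.60% at 0 to 99 bp and 89.6% at 400 to 500 bp, and none lay in coding sequence beyond 300 bp.

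Of the 15 strongest downstream summits, 10 were in the 5' UTR and 5 in an intron. Another TSS of the same gene lay within 500 bp past the summit in 7 of the 10 in the 5' UTR. The strongest of all was at PNPase, which encodes polynucleotide phosphorylase, an RNA-degrading enzyme of mitochondria (FBgn0039846, chromosome 3R, 31401560 to 31405452, minus strand). Its summit at 31404661 lay 79 bp past one TSS and 93 bp before the next, with a signal value of 4986 (rank 13), 1529 in replicate 2 (rank 12) and 3475 in replicate 3 (rank 11). TRAM, whose human counterpart helps proteins across the endoplasmic reticulum membrane, had its summit 89 bp past one TSS and 105 bp before the next (signal value 1882; 612 in replicate 2 and 1262 in replicate 3). Smg5, a nonsense-mediated decay gene, had it 90 bp past one and 95 bp before the next (1462; 409 and 1056).

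The same arrangement held at 4 more of the 15. The carbonic anhydrase gene CAH3 had its summit 143 bp past one TSS and 156 bp before the next (signal value 1503), and CG14434 had it 106 bp past and 151 bp before (1395). GstE13, a glutathione S-transferase gene, had it 58 bp past and 141 bp before (2375), and CG9399 had it 46 bp past and 179 bp before (1872). These summits are therefore downstream of one start and upstream of another. In both replicates each of the 7 ranked in the strongest 611 peaks. At PNPase, CAH3 and Smg5 the replicate 2 summit, at 89, 168 and 104 bp, was the nearer to the later start, so that in replicate 2 these 3 count as upstream of it.

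Over all 421 downstream summits, 103 (24.5%, interval 20.6 to 28.8) had a later TSS of the same gene within 500 bp. Of 2168 upstream summits, 231 (10.7%, interval 9.4 to 12.0) had another TSS, besides the nearest, within 500 bp past the summit. The 103 downstream summits lay a median of 49 bp past the nearest TSS and 172 bp (quartiles 94 and 284) before the next. Their median signal value was 344, against 248 for the 318 without a later TSS. The share was 38.1% (interval 29.4 to 47.6) in the strongest of 4 groups of equal size by signal value and 17.1% (interval 11.1 to 25.5) in the weakest. Genes of downstream summits had several annotated TSSs in 65.3% of cases, against 50.1% for upstream summits, a difference of 15.2 points (95% Newcombe interval 10.1 to 20.1), and 26.5% of all 13968 protein-coding genes. A later TSS implies several TSSs, and among the 318 without one the share was 54.1% (interval 48.6 to 59.5). The TSS was the first of its gene in 70.1% of downstream and 74.1% of upstream summits, a difference of -4.05 points (interval -8.94 to 0.53).

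**Figure D3:**
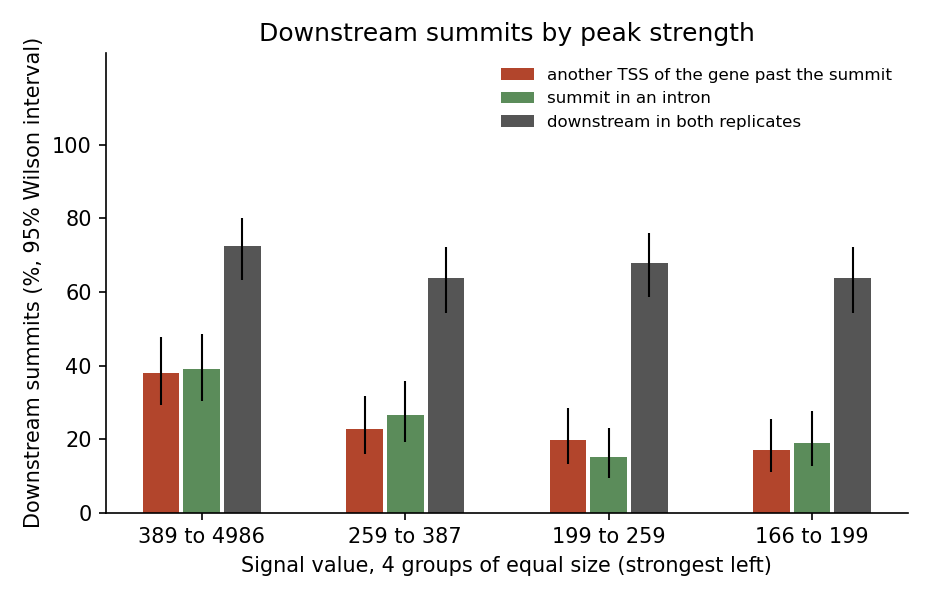
Share of downstream summits with another TSS of the same gene past the summit, with the summit in an intron, and with a downstream summit in both replicates, in 4 groups of equal size by signal value from the strongest (left) to the weakest; bars carry 95% Wilson intervals. The share with a later TSS was 38.1% in the strongest group and 17.1% in the weakest, and the intronic share 39.0% and 19.0%.

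The other strong summits in the 5' UTR had no further start within 500 bp. The second strongest lay at ph-p, a Polycomb group gene (signal value 2721; 910 in replicate 2 and 1989 in replicate 3), 424 bp past the first TSS of the gene. CHES-1-like, a forkhead factor gene, had a summit at 207 bp (1789; 660 and 1124). Eip75B, which encodes the ecdysone-induced nuclear receptor E75 from 7 annotated TSSs, had one 38 bp past one of them (1786; 668 and 1122). All 3 ranked in the strongest 290 peaks of each replicate.

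Intronic summits had a higher median signal value than those in the 5' UTR, and most lay in first introns. Their median signal value was 340, against 245 in the 5' UTR, and 307 for the 2893 intronic summits over 500 bp from any TSS. In 96 of 105 (91.4%) the intron was the first, and the summit lay a median of 167 bp (quartiles 81 and 266) past the end of the exon before it. The median length of these introns was 998 bp (quartiles 475 and 2574). Genes with an intronic downstream summit had a median length of 7320 bp (quartiles 3926 and 17241), and 82.9% of them had several TSSs. The median was 4568 bp for those with a summit in the 5' UTR and 2164 bp for all protein-coding genes. Genes of upstream summits were also long, with a median of 5175 bp and wide, overlapping quartiles (2160 and 14586).

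The intronic summits were led by genes of varied function. CG31612 had a summit 496 bp past the TSS and 295 bp into an intron of 19799 bp (signal value 2101; 734 in replicate 2 and 1374 in replicate 3). CG43116 had one 155 bp into an intron of only 221 bp (1433; 501 and 956). Ptp4E, a receptor tyrosine phosphatase gene, had one 404 bp past the TSS (1386; 490 and 911). rudhira followed at 255 bp (1344; 505 and 833) and hng3 at 442 bp (1320; 489 and 839). In these 5 the replicate summits lay within 20 bp of the pooled one. At CTCF, the gene of an insulator protein, the summit lay 24 bp into an intron of 121 bp (938; 364 and 576), and here the summits of the replicates were 65 bp apart, at 99 bp in replicate 2 and 164 bp in replicate 3.

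The DRE and Motif 1, when present under downstream summits, lay near the TSS. The DRE (letters TATCGATA) was in 45 of 421 windows of 201 bp (10.7%, interval 8.09 to 14.0), against 10.1% of upstream summits, a difference of 0.63 points (95% Newcombe interval -2.29 to 4.16) whose sign turned in replicate 3 (-0.10 points). The difference was -1.61 points (interval -3.60 to 1.03) in windows of 50 bp to each side. It was -6.83 points (interval -8.67 to -4.40) when windows ran from the TSS, 200 bp downstream for downstream summits and 200 bp upstream for upstream summits. Those windows lie on opposite sides of the TSS. Around the summits, the DRE lay before the TSS in 32 of 45 downstream and 190 of 218 upstream windows that held it. The -6.83 points therefore do not compare like windows, and no difference between the classes is read from them. The DRE was in 5.90% of all IDR windows and in 0.910% of windows from the TSS to 200 bp downstream at all 13852 isolated coding TSSs. In 32 of the 45 the DRE lay before the TSS, and the median position of its middle was -16.5 bp. The windows from the TSS to 200 bp downstream do not reach those bases, so the 0.910% is not comparable with the 10.7%. In the first 100 bp 16.8% of windows held it, and of the 107 windows from 200 bp on 1 did. This one was at cnc, the gene of the stress response factor of the Nrf family. Motif 1 (GGTCACACT) was in 35 windows (8.31%), all of them in the first 100 bp, against 6.27% of upstream summits (difference 2.04 points, interval -0.49 to 5.21), and in 1.47% of the TSS windows. Its median position was 13 bp past the TSS, and in 10 of the 35 it lay before the TSS, where the TSS windows do not reach. Of 2893 intronic summits over 500 bp from a TSS, 0.380% had the DRE and 0.346% Motif 1.

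Of the 17 motifs searched on both strands, 4 had a difference whose interval excluded 0, without adjustment over the 17. The pause button (CGGACG) was in 5.94% of downstream and 2.26% of upstream windows, a difference of 3.68 points (interval 1.66 to 6.41), and in 6.81% of TSS windows. The DPE letters AGACGTG were in 2.38% and 0.600% (difference 1.78 points, interval 0.62 to 3.73), and in 1.18% of TSS windows. The TATA letters TATAAA were in 24.7% and 36.3% (difference -11.6 points, interval -16.0 to -6.82), and the splice donor letters GTAAGT in 4.99% and 8.16% (difference -3.18 points, interval -5.27 to -0.44). TSS windows held these in 17.0% and 10.03% of cases. These 4 differences had the same sign in the strongest peaks of each replicate, but their size varied. In replicates 2 and 3 they were 4.72 and 2.13 points for the pause button and 0.88 and 0.97 for the DPE. For the TATA letters they were -15.2 and -10.0 points, and for the splice donor -0.32 and -1.83. The DPE letters were in only 10 downstream and 13 upstream windows of the IDR list. At downstream summits their median position was 55 bp past the TSS, and that of the pause button letters 48.5 bp. Of these windows, 2 of 10 and 5 of 25 had the letters before the TSS. The search set no position, so the letters need not be promoter elements. The windows also differed in base composition, with a median GC content of 40.8% at downstream and 34.8% at upstream summits, and its part in these differences was not tested.

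For the other motifs the interval of the difference included 0. Motif 7 (CAGCNCTG) was in 7.60% and 7.66% of windows, and the CAGCTG E-box in 13.1% and 11.7%. GAGA repeats (GAGAGAG) were in 4.75% and 4.29%, but were less frequent at downstream than at upstream summits in each replicate (differences -2.68 and -1.82 points). The TCF letters of the Wnt pathway (CTTTGAT) were in 2.61% and 3.14%, with a difference of -0.52 points (interval -1.94 to 1.58). The homeodomain core TAATTA was in 14.0% and 16.7%, a difference of -2.64 points (interval -6.04 to 1.31).

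**Figure D4:**
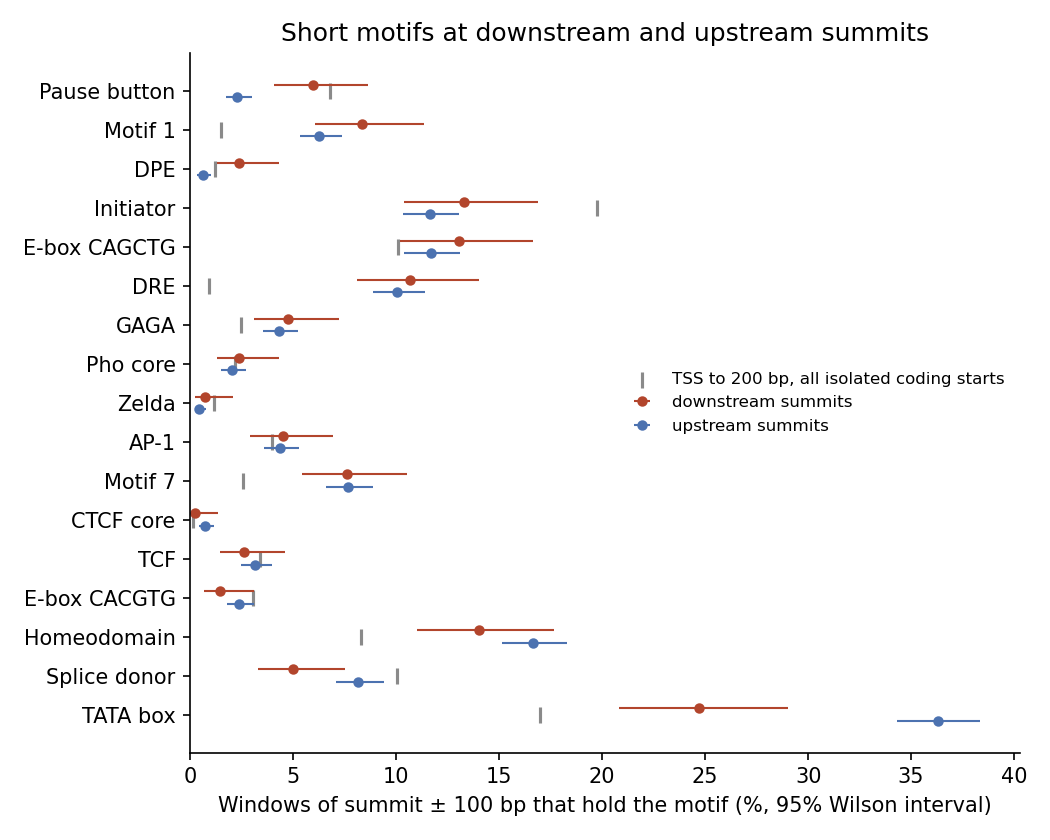
Share of 201 bp windows that hold each of 17 motifs at downstream summits (upper point of each pair) and upstream summits (lower point), with 95% Wilson intervals; grey ticks are windows from the TSS to 200 bp downstream at all isolated coding TSSs. The TATA letters were in 24.7% of downstream and 36.3% of upstream windows, and the pause button in 5.94% and 2.26%.

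How many summits counted as downstream depended on the replicate. Among the 9299 strongest peaks of replicate 2 there were 718 downstream summits, 25.1% of those at isolated coding starts (interval 23.6 to 26.7). Among those of replicate 3 there were 325, or 13.3% (interval 12.0 to 14.7). In the IDR list the share was 16.3% (interval 14.9 to 17.7). Of the 718 in replicate 2, 356 were overlapped by a downstream summit of the same gene in the IDR list, 158 by an upstream one, 22 by another summit, and 182 by none. Of the 325 in replicate 3, 249 had a downstream summit there, 56 an upstream one and 15 none. The median distance was 65 bp in replicate 2 and 83 bp in replicate 3.

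The place of the 421 summits repeated about as closely in introns as in the 5' UTR, while the side of the TSS repeated less often in the 5' UTR, where the median distance from it was 36.5 bp. A replicate summit lay within 100 bp for 97.1% of intronic and 96.7% of 5' UTR summits in replicate 2, and for 94.3% and 93.5% in replicate 3. Replicate 2 had an overlapping peak for 419 and replicate 3 for 408. The overlapping summit was downstream at the same gene in 360 (85.5%, interval 81.8 to 88.6) in replicate 2 and in 322 (76.5%, interval 72.2 to 80.3) in replicate 3, and in both for 282 (67.0%, interval 62.4 to 71.3), against 85.7% for the side of upstream summits. For intronic summits the shares were 95.2% and 86.7%, and for those in the 5' UTR 82.0% and 72.2%. Of the 421, 41 lay upstream of their TSS in replicate 2 and 66 in replicate 3. Among the 406 found in both, the replicate 2 summit was the farther into the gene in 233 and the replicate 3 summit in 166, with a median difference of 4.5 bp (quartiles -16.5 and 36.75 bp). Spearman's rho between the replicates' signal values was 0.58 across these 406, and 0.79 across 2096 upstream summits. It describes peaks that were chosen from the pool of both samples.

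**Figure D5:**
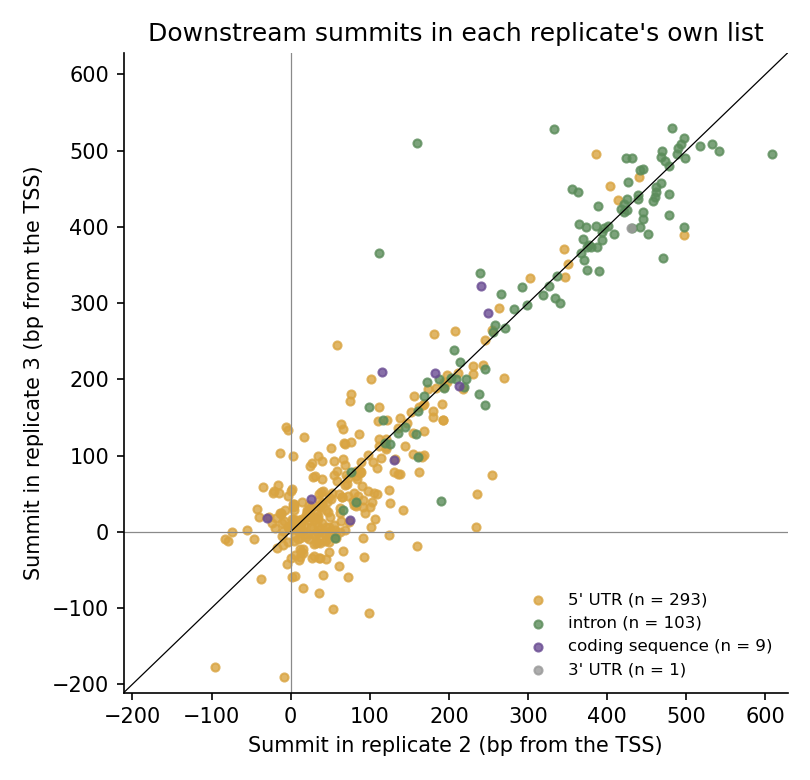
Distance of the overlapping summit from the TSS in replicate 2 (x axis, bp) and replicate 3 (y axis, bp) for the 406 downstream summits found in both lists, coloured by annotation in the IDR list; the line marks equal distance. Some 5' UTR summits lie on the other side of the TSS in a replicate, while most intronic ones lie near the line and a few far from it.

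Some of the genes had a second summit. Of the 404 genes, 100 (24.8%) also had an upstream summit, and 17 had 2 downstream summits. At 35 of the 421 downstream summits an upstream summit lay at the same TSS, in 27 cases the stronger of the 2. The gap between them was 220 bp or less in 25 of these 35. No 2 summits of any of the 4 lists were closer than 199 bp, so closer pairs were not resolved. Mer was one such gene, with a summit at 78 bp (signal value 771) and one at -125 bp (193), and CTCF another, at 156 bp (938) and -52 bp (249). Downstream pairs lay at different starts in Trpm, a cation channel gene (165 and 171 bp past 2 of its 4 TSSs, signal values 931 and 627), in egh, which encodes a glycolipid mannosyltransferase (373 bp, 873, and on a TSS, 197), and in ph-p, where the second was weak (20 bp, 203).

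By gene function, 404 of 13968 protein-coding genes (2.89%) had a downstream summit and 1960 (14.0%) an upstream one. In 27 hand-made lists with 1142 genes together, 68 (5.95%) had a downstream summit. Polycomb and Trithorax group genes, which keep developmental genes silent or active, had one in 7 of 32 cases (21.9%, interval 11.02 to 38.8) and an upstream one in 9. These were ph-p, Trl, which encodes the GAGA factor (signal value 754; 270 in replicate 2 and 476 in replicate 3), ph-d, lolal, trx, Su(z)2 and Psc. ph-p and ph-d are neighbouring copies of similar sequence, in which reads may be hard to place. The trx summit, 18 bp past the TSS in the IDR list, was at -4 bp in replicate 2 and -14 bp in replicate 3. That of Su(z)2, at 19 bp in the IDR list, was at -40 bp in replicate 2. Insulin and JAK-STAT genes had one in 4 of 23 (chico, Sik3, Thor and Stat92E), and no peak of replicate 3 overlapped that of chico. Adhesion and polarity genes had one in 6 of 35, led by Vinc, the gene of the adhesion protein vinculin (996; 377 and 627), and scrib (461; 226 and 260).

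Signalling genes of the Wnt, Notch, planar polarity and EGFR lists had downstream summits in 3 to 5 cases each, and some genes stand in several lists. More genes of each list had an upstream summit: 14 of 34, 7 of 25, 5 of 19 and 15 of 38. These shares, 26.3% to 41.2%, were also above the 14.0% of all protein-coding genes with an upstream summit. The Wnt list had 5 of 34 (14.7%, interval 6.45 to 30.1): arr and fz4, genes of a co-receptor and of a Frizzled receptor (376 and 248), CkIalpha, fz2 and dco. The planar polarity list had 3 of 19, at Vang (286), stan (231) and app (188). The summit of arr was at -4 bp in replicate 3, and that of Vang at -2 bp in replicate 2. The Notch list had 4 of 25, led by mib1, a ubiquitin ligase gene that acts on Notch ligands (929; 391 in replicate 2 and 543 in replicate 3), whose summit lay 9 bp past the TSS in the IDR list and at -23 bp in replicate 3, and Su(dx) (255). The EGFR and MAP kinase list had 5 of 38, led by the ligand gene spi, with a summit 499 bp past the TSS in an intron (314), and slpr, a kinase gene of the JNK pathway (223). Another of the 5 was stg, which also stands in the cell cycle list. It encodes a cell cycle phosphatase and is no component of the EGFR or MAP kinase cascade, so its place in this hand-made list raises the count. Mer led the 3 of 30 Hippo and hedgehog genes. None of 26 BMP and activin genes had one, and 2 of these had an upstream summit.

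Among housekeeping lists the intervals of the shares overlapped. Cytoplasmic ribosomal protein genes had a downstream summit in 6 of 86 cases (6.98%, interval 3.24 to 14.4) and an upstream one in 30, with the strongest at RpL26 (1065; 372 in replicate 2 and 695 in replicate 3) and RpL30 (835; 313 and 531). At RpL30 the summit lay 22 bp past the TSS in the IDR list, 15 bp past it in replicate 2 and at -28 bp in replicate 3. Mitochondrial ribosomal protein genes had 1 of 73 (mRpS5), proteasome genes 1 of 48 (Prosalpha2), RNA polymerase II and Mediator genes 1 of 62 (MED26), and translation factors 2 of 51 (eIF4E1 and eIF3j). No peak of replicate 2 overlapped that of mRpS5. Heat shock and stress genes had 4 of 27, among them Hsp83, which encodes the chaperone Hsp90 (606; 216 and 398), and cnc (506; 181 and 331). Cytoskeletal genes had 4 of 40, led by sqh, the gene of the myosin regulatory light chain (1058; 405 and 653), and Moe, the gene of moesin (482; 163 and 324).

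RNA-binding and splicing genes had a downstream summit in 6 of 46 cases, led by Sxl, the switch gene of sex determination (719; 219 in replicate 2 and 502 in replicate 3), and shep (551; 220 and 349), both in introns. Cell cycle genes had 3 of 42, with CycA (336) and Orc2 (223) each within 4 bp of the TSS in the IDR list and holding a DRE, and stg. The CycA summit was at 91 bp in replicate 2 and -8 bp in replicate 3, and that of Orc2 at 30 and -16 bp. Developmental fate lists had 1 each among 36 Hox and segmentation genes (cnc), 37 neural fate genes (pros, 198, in coding sequence) and 44 mesoderm and muscle genes (lbe, 263). In replicate 2 the summits of pros and lbe were at -30 and -37 bp, and in replicate 3 that of lbe was at -62 bp. An upstream summit was at 14, 8 and 11 genes of these 3 lists (38.9%, 21.6% and 25%), beside 14.0% of all protein-coding genes. Guidance and synapse genes had 2 of 34, Sema2a (356) and Dscam1 (183). Ecdysone response genes had 1 of 21 (Eip75B), the insulator and promoter factor list 2 of 21 (CTCF and Trl), and the cell death and clock list 1 of 29 (dco, 200.0). None of 120 odorant and gustatory receptor genes (interval 0 to 3.10%) and none of 95 cuticle protein genes (interval 0 to 3.89%) had one. These lists are described by their counts alone, beside the 2.89% of all protein-coding genes. Upstream summits were at 6 of 23 insulin and JAK-STAT, 12 of 35 adhesion and polarity and 11 of 27 stress genes. They were at 17 of 46 RNA-binding, 19 of 42 cell cycle and 11 of 40 cytoskeletal genes, beside 14.0% of all protein-coding genes.

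At the limit of 500 bp the last summits inside were those of DopEcR, a receptor gene for dopamine and ecdysteroids (500 bp, signal value 350), and, both at 499 bp, of spi (314) and of Ada2b, a gene of a histone acetyltransferase complex (1239). The first outside were at mats (501 bp, 498) and ZnT77C (503 bp, 190). All 5 were intronic, and 58 summits met the other conditions at 501 to 600 bp. On the chromosomes, 18.1% of downstream and 18.5% of upstream summits were on the X, a difference of -0.44 points (95% Newcombe interval -4.22 to 3.82).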

How the data were processed

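Each of the 2 replicates and the pool of both had a deposited list of 30000 peaks on dm6 in narrowPeak format, and an IDR-thresholded list of 9299 was derived from these 3, per the deposited text notes. The aligner, the caller and the IDR threshold are not given in the sources used here. The signal value and the summit offset are the authors' own, and the deposited −log10 q-value was not used. Signal values were compared within a list only. Summits were assigned with Python 3.11.15 to TSSs of Ensembl release 115 (BDGP 6.54; 18277 genes without transposable-element entries), a build with dm6 coordinates. Ties between TSSs of 1 gene counted as downstream. Replicate peaks were matched by an overlap of at least 1 bp, taking the nearest summit. Motif windows reached 100 bp to each side of a summit. Positions for comparison were sampled every 20 bp past all isolated coding TSSs. The classifier and the motif search were tested on simulated data. No p-values are given, since peaks are not replicates: shares have 95% Wilson and differences 95% Newcombe intervals.

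The set, the motifs and the gene lists were chosen with earlier results of these data known. Named genes were the 15 strongest summits, the 2 strongest in each 100 bp and in each list, 3 genes with 2 summits, and those at the limit. Other list members are named to account for small counts, after their values were seen. Sequences of chromosome arm 2R were not printed, and the DRE example at RpL26 was added after its value was seen. Alternatives tried were each replicate's 9299 strongest peaks, the 4649 strongest IDR peaks, all pooled peaks, other distances, only the first TSS of a gene, and other motif windows.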

Additional observations from a re-analysis of the deposited data

How the results depend on the processing

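With the strongest peaks of 1 replicate alone, the number of downstream summits ranged from 325 to 718 and that of genes from 313 to 673. Their share at isolated coding starts ranged from 13.3% to 25.1%, the median distance from 65 to 83 bp, the intronic share from 20.6% to 27.7%, the share with a later TSS from 17.97% to 28.9% and the ratio of median signal values from 0.748 to 0.761. The DRE difference, 0.63 points in the IDR list, ranged from -0.101 to 0.0395 points, and its sign turned in replicate 3.

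Among the 4649 strongest IDR peaks there were 147 downstream summits at 146 genes, 11.3% of those at isolated starts, with a median distance of 106 bp, an intronic share of 36.7%, a later TSS in 36.1% and a signal ratio of 0.888. With all pooled peaks there were 2121. With a limit of 300 bp the median distance was 41 bp, the intronic share 10.3%, the share with a later TSS 29.6% and the ratio 0.721. With only the most upstream TSS of each gene the share at isolated starts was 20.1%, the distance 79.5 bp, the intronic share 20.7%, the share with a later TSS 45.3% and the ratio 0.756. With isolation measured from the TSS the share was 14.9%. The DRE difference was -1.61 points with windows of 50 bp to each side. It was -6.83 points with windows at the TSS, on the side of the summit, which are not like windows for the 2 classes. The cause was not tested, with 2 exceptions set by the settings themselves. A shorter limit takes away the far intronic summits, and windows at the TSS lie on opposite sides of it for downstream and upstream summits. No other value moved beyond its interval, the spread between replicates or 1.5 times a count. No paired analysis was possible because there is 1 group. Read depth was unknown.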
